A study of Homo sapiens with 4 samples.

Results

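This account covers 30 genes of the p53 response in U87 cells, out of 22031 genes measured and 16535 tested. The members are known targets or regulators of p53, listed by name, and the list was made with earlier results of these data known. All 30 had a mean of at least 10 normalized reads and entered the tests, with values from 56.7 upwards in every library. They fall into 5 groups by role, which are feedback on p53 (4 genes), apoptosis (10), DNA repair and nucleotide supply (5), metabolism, redox state and mitochondria (5), and growth arrest with other roles (6).

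p53 is a transcription factor that becomes stable when DNA is damaged or cells are stressed, and it then switches on genes that halt division, repair DNA or start cell death. MDM2 and MDM4 are targets and inhibitors of p53 at once, so they close a feedback loop that limits the response. U87, an established human glioblastoma line, is known to carry wild-type p53, which makes its target genes a readable output of the pathway.

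Messenger RNA was sequenced from 4 libraries of U87 cells. The mimic group (2 libraries) was transfected with a synthetic copy of tRF-3009a, one of the fragments derived from the 3' ends of transfer RNAs, and the control group (2 libraries) with ssGL2, the single-stranded form of an siRNA directed at luciferase. All 4 libraries shared the cell line, an oligonucleotide dose of 50 nM, Lipofectamine 2000 and 48 h of transfection. Each group has a library numbered 1 and a library numbered 2. The labels do not say what the number stands for, nor that libraries came from separate cultures, so p-values here measure only the spread between these libraries, which may be technical. Untransfected cells were not analysed here, so effects of transfection itself cannot be told apart from the state of the line.

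The libraries held 33848402 and 33255642 recovered reads in mimic 1 and 2, and 30153387 and 28860788 in control 1 and 2. Every pair of libraries differed by more than sampling noise (chi-square per gene of at least 6.39, which would be near 1 for repeats of 1 library), so each counted as 1 sample. Of the markers of astrocytes and glioma, VIM and CD44 were high (121239 to 276546 and 17935 to 41466 normalized reads), while GFAP stood at 12.5 to 29.7 and SOX2 at 9.35 to 18.0. S100B and AQP4 were not analysed here. Of the 4 immune markers, PTPRC and CD14 were at 6.72 normalized reads or below in every library, while CSF1R stood at 52.4 to 439.6 and CD68, a lysosomal protein gene, at 7238 to 10220.4. Over all genes, a shared number went with closer profiles (Pearson's r of 0.984 and 0.987 across genes) than a shared treatment (0.941 and 0.942), so both the treatment and the number are described for the members.

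The sequences that can tie a gene directly to p53 are shown first. A p53 site consists of 2 elements of 10 bases each, which are palindromic in form, with a fixed C at position 4 and a fixed G at position 7 of each. RefSeq promoter windows (GRCh38.p14) of 300 bases, from 250 bases before to 50 after a gene's start, were searched for 2 such elements at most 13 bases apart with at most 2 mismatches in all outside the fixed bases. The motif reads alike on both strands. Windows were matched for 24 of the 30 members, and RRM2B, TP53INP1, PHLDA3, TNFRSF10D, TNFRSF10B and GADD45A had no entry. The match with the fewest mismatches in each member that held one follows, with both elements in capitals.
MDM2, chr12:68808918-68808947, plus strand: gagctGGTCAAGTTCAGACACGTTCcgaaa
DDB2, chr11:47214975-47215003, plus strand: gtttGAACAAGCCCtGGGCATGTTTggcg
AEN, chr15:88621301-88621330, plus strand: gagccGGGCTTGCCCGGGCATGTGGgagct
FAS, chr10:88991304-88991333, plus strand: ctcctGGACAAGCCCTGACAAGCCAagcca
FDXR, chr17:74872996-74873025, minus strand: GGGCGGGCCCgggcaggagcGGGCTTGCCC
A match was found in at least 1 window of 5 of 24 members (20.8%) and of 989 of 27305 genes (3.62%). The DDB2 match had 0 mismatches, as did a match in 10 genes of all (0.0366%), and it lay 6 to 26 bases after the start. The MDM2 match lay 94 to 75 bases before the start of a promoter inside the gene, and its 2 elements were adjacent. In AEN and FAS the elements were adjacent too, at 34 to 15 and 122 to 103 bases before the start, while FDXR had 10 bases between them. A match is a description of letters and shows neither binding nor use, and a window without a match says nothing about sites elsewhere in the gene.

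Setting the mimic against the control asked which messenger RNAs differ once the fragment is in the cells. None of the 30 p53 genes was called at an adjusted p under 0.05 with limma, where the background was 0 of 16535 genes (0.0%). The members' log2 differences, mimic minus control on the log2(value + 1) scale, ran from -0.33 (BTG2) to 0.15 (CCNG1), with a median of -0.05 against -0.01 over all genes tested. All 30 had an adjusted p of 1.00, and 0 members were at an unadjusted p under 0.05, as were 26 of all genes with limma, 35 with edgeR and 23 with DESeq2. With the library number as a block, 0 members were called by limma, where 0.708% of all genes were, and 0 by edgeR, where 0.55% were. In both blocked fits 3 members, TNFRSF10D, PLK3 and PHLDA3, were at an unadjusted p under 0.05 on the lower side, as were 1019 of all genes in either direction with limma and 924 with edgeR. The 95% intervals of the limma fit without a block reached 0.52 to 3.23 to either side of a member's difference, with a median of 0.95. Changes within these intervals could not be told from 0 in that fit. Its spread includes the difference between numbers, so the intervals give no limit for the blocked fits. With a library left out the difference changed sign in 27 of 30 members, and the share over all genes is not given here. Such a fit gives mimic and control an unequal share of each number, so the number difference enters it by construction.

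Within each number the mimic and the control library were close at these genes. Inside number 1 the difference ran from -0.43 (BTG2) to 0.27 (TIGAR), and inside number 2 from -0.40 (TNFRSF10D) to 0.17 (FDXR), with a median size of 0.114 and 0.0954. No member differed by more than 2-fold inside either number, while 4.48% and 3.83% of all genes did inside number 1 and number 2. The set of all genes reaches down to a mean of 10 normalized reads, while no member value was below 56.7. The sign was the same inside both numbers for 15 of 30 members (50%), and for 50% of all genes. Below 0 on average were 21 of 30 members (70%), against 53.8% of all genes, and 16 of 30 when libraries were scaled by their totals.

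The groups did not overlap for 3 of 30 members, against 12.4% of all genes. CCNG1 was higher in the mimic (1 of 30, against 6.18% of all genes), and FAS and SPATA18 were lower (2 of 30, against 6.21%). CCNG1, a cyclin that brings a phosphatase to MDM2, had 6134 and 6348 normalized reads in mimic 1 and 2, against 5300 and 5964 in control 1 and 2. FAS, a death receptor at the cell surface, had 850 and 895 in the mimic, against 921 and 957 in the control. SPATA18, which takes part in the quality control of mitochondria, had 403 and 435 in the mimic, against 447 and 468 in the control. The log2 differences were 0.15 ± 0.19 for CCNG1, -0.11 ± 0.21 for FAS and -0.13 ± 0.24 for SPATA18 (SE, n = 2 per group), all within their errors. These errors include the difference between numbers. With coding transcripts alone FAS differed by -0.41, and it was not called.

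**Figure D1:**
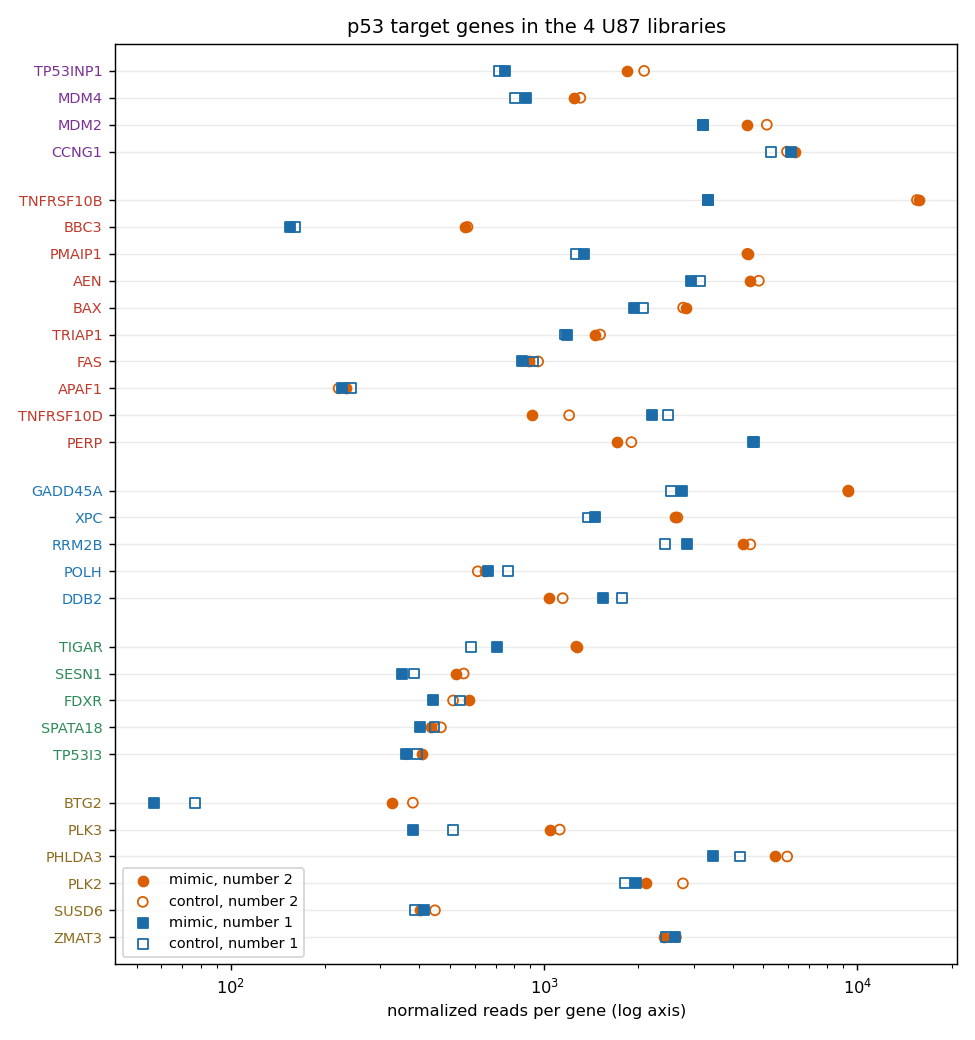
Normalized reads of the 30 p53 genes in each library on a log axis, grouped by role (name colours), with filled symbols for the mimic, open symbols for the control, circles for number 2 and squares for number 1. Filled and open symbols of the same number lie close together, while circles and squares are far apart for TNFRSF10B, GADD45A, BBC3 and BTG2.

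The comparison of the libraries numbered 2 with those numbered 1 asked how the same genes differ between numbers. Each number holds 1 mimic and 1 control library, so the spread in this fit is that between mimic and control inside a number. No number holds a repeat of a treatment, so the errors, intervals and p-values between numbers do not measure the spread between such repeats. Of the 30 members 21 were called with limma, 18 higher and 3 lower in number 2, where 50.2% of all genes were called, 26.0% higher and 24.2% lower. The members' median log2 difference, number 2 minus number 1, was 0.52, against 0.01 over all genes tested. More than 2-fold apart were 9 members, where 19.3% of all genes were. Of these 9, 7 were higher (9.39% of all genes) and 2 lower (9.92%). The 95% intervals of these differences reached 0.16 to 0.46 to either side, narrower than those of the treatment. The count over all genes was 8301, and it was 5163 without mimic 2 and 5430 without control 2, while 18 to 21 members were called with a library left out. In bulk RNA, fewer cells of a type and less RNA per cell cannot be told apart.

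By role, the median log2 difference between numbers was 0.75 for repair, 0.59 for feedback, 0.47 for growth arrest and other roles, 0.41 for apoptosis and 0.15 for metabolism. Called higher were 3 of 4 feedback genes, 6 of 10 apoptosis genes, 3 of 5 repair genes, 2 of 5 metabolic genes and 4 of 6 genes of growth arrest and other roles. Over all genes tested, 26.0% were called higher and 24.2% lower. The members called lower were the apoptosis genes PERP and TNFRSF10D and the repair gene DDB2. The spread was widest in apoptosis, from -1.37 to 2.22, while the feedback genes ran from 0.11 to 1.42. For the treatment the same role medians were 0.02 for repair, -0.02 for feedback, -0.17 for growth arrest and other roles, -0.04 for apoptosis and -0.06 for metabolism. Roles were not tested against each other, since members are not replicates of a role.

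**Figure D2:**
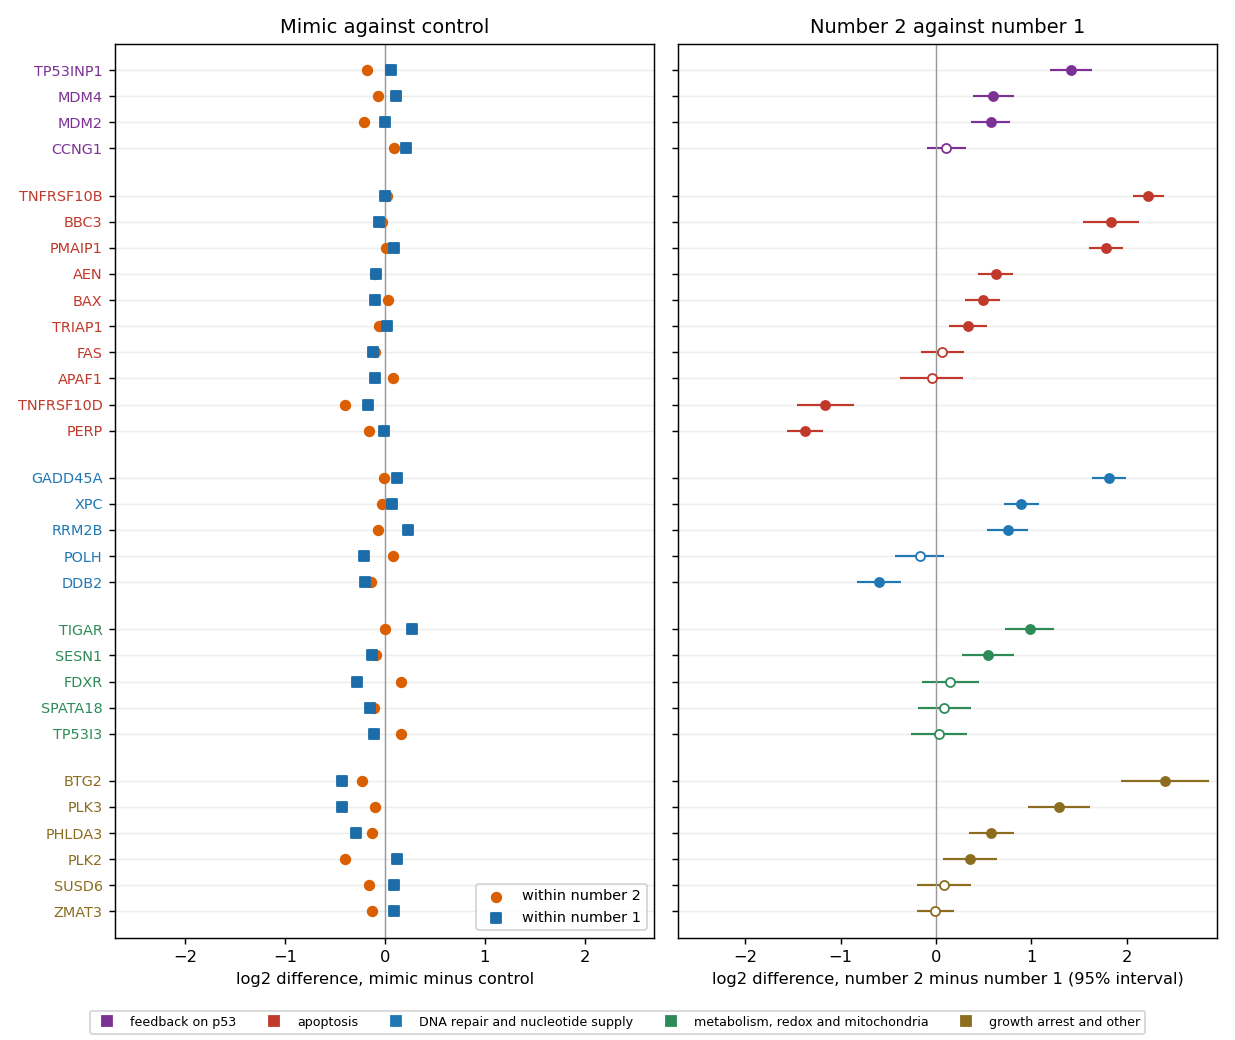
Log2 differences on the log2(value + 1) scale, mimic minus control inside number 2 and number 1 (left) and number 2 minus number 1 with 95% intervals (right), with filled points called at an adjusted p under 0.05 and name colours for roles. The treatment differences stay between -0.43 and 0.27, while those between numbers run from -1.37 to 2.40.

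**Figure D3:**
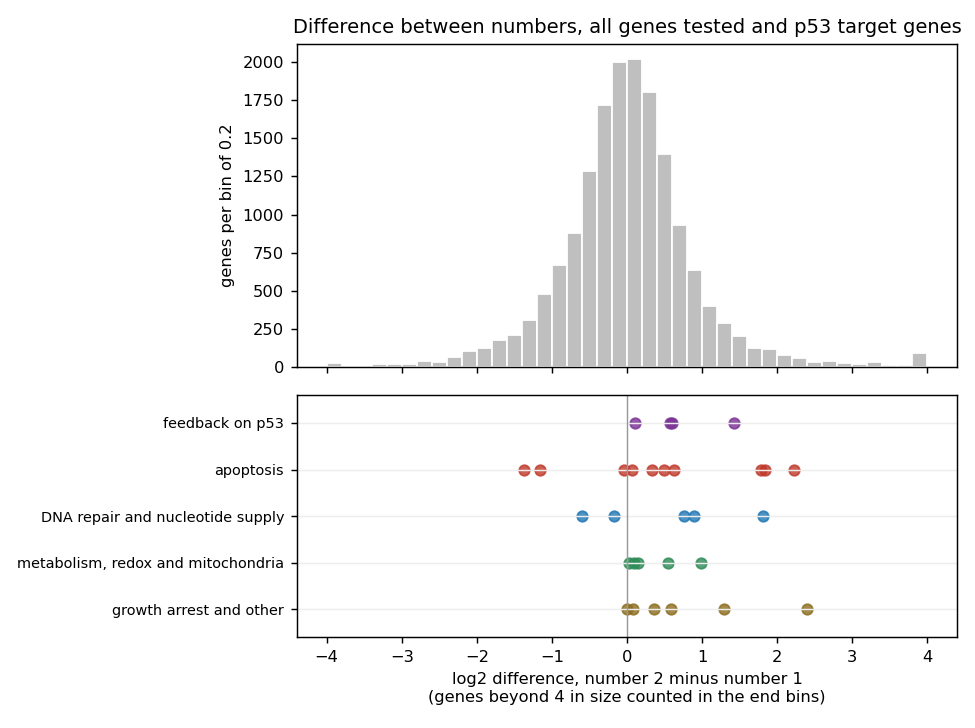
The log2 difference between numbers for all 16535 genes tested (upper panel, genes per bin) and for the 30 p53 genes by role (lower panel, 1 point per gene). All genes centre on 0.01 and the members on 0.52.

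Among the feedback genes, the inhibitors of p53 were moderately higher in number 2 and close between treatments. MDM2, the ubiquitin ligase that marks p53 for degradation, had 4445 normalized reads in mimic 2 and 5143 in control 2, against 3210 in mimic 1 and 3213 in control 1. Its level was nearly the same in both number 1 libraries and highest in control 2, and the numbers did not overlap. The log2 difference between numbers was 0.57 ± 0.09 (SE, n = 2 per number, limma adjusted p = 0.000655), and the mimic differed from the control by -0.11 ± 0.34. MDM4, a relative of MDM2 that masks the activating domain of p53, had 1245 in mimic 2 and 1306 in control 2, against 875 in mimic 1 and 809 in control 1. It was higher in both number 2 libraries, by 0.60 ± 0.10 (limma adjusted p = 0.000734), and its treatment difference was 0.02 ± 0.36.

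The other feedback genes stood at opposite ends of that group. TP53INP1, a nuclear protein that promotes the phosphorylation of p53 and also takes part in autophagy, had 1844 in mimic 2 and 2087 in control 2, against 749 in mimic 1 and 719 in control 1. Both number 2 libraries were 2.67-fold above number 1 on the fitted scale, with a log2 difference of 1.42 ± 0.10 (limma adjusted p = 5.33e-06). CCNG1, whose 4 values are given above, was not called between numbers, at 0.11 ± 0.09 (limma adjusted p = 0.344), though it was called without mimic 1, at 0.22. In GRCh38 with the GENCODE annotation, MDM2 lies at chr12:68808176-68850686, MDM4 at chr1:204516379-204558120 and CCNG1 at chr5:163437569-163446151, all on the plus strand, and TP53INP1 at chr8:94925972-94949411 on the minus strand.

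Of the 10 apoptosis genes, 3 were higher and 2 lower by more than 2-fold in number 2, and the other 5 differed by less. TNFRSF10B, the death receptor DR5 for the ligand TRAIL, had 15764 normalized reads in mimic 2 and 15506 in control 2, against 3345 in mimic 1 and 3345 in control 1. Mimic and control were nearly identical inside each number, and the numbers were 4.67-fold apart, a log2 difference of 2.22 ± 0.07 (limma adjusted p = 9.52e-08). BBC3, which encodes the BH3-only protein PUMA, had 557 in mimic 2 and 569 in control 2, against 154 in mimic 1 and 160 in control 1. It was 3.57-fold higher in number 2, by 1.84 ± 0.13 on the log2 scale (limma adjusted p = 6.26e-06). PMAIP1, which encodes NOXA, another BH3-only protein, was 3.44-fold higher in number 2 (1.78 ± 0.08), with treatment differences of 0.09 inside number 1 and 0.01 inside number 2.

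BAX, AEN, TRIAP1, APAF1 and FAS differed by less than 2-fold between numbers. BAX, the pore-forming protein of the outer mitochondrial membrane, was higher in number 2 by 0.49 ± 0.08, AEN, an apoptosis-enhancing nuclease, by 0.63 ± 0.08, and TRIAP1, a small protein that counters apoptosis, by 0.33 ± 0.09. All 3 were called with limma, at adjusted p of 0.000970, 0.000215 and 0.0105. The call of TRIAP1 was lost without mimic 2 and without control 2. APAF1, the scaffold of the apoptosome, had 233 in mimic 2 and 221 in control 2, against 227 in mimic 1 and 242 in control 1. Its 4 values overlapped in every grouping, and the difference between numbers was -0.04 ± 0.14 (limma adjusted p = 0.819). FAS, with its 4 values above, was not called between numbers either, at 0.06 ± 0.10 (limma adjusted p = 0.618).

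Both apoptosis genes called lower in number 2 encode proteins of the membrane, as do TNFRSF10B, called higher, and FAS, not called. TNFRSF10D, a decoy receptor that binds TRAIL without passing on a full death signal, had 912 in mimic 2 and 1202 in control 2, against 2210 in mimic 1 and 2489 in control 1. It was lower in both number 2 libraries, at -1.16 ± 0.13 on the log2 scale (limma adjusted p = 0.000102), and lower in the mimic inside both numbers, at -0.17 in number 1 and -0.40 in number 2. The treatment difference of -0.28 ± 0.60 was within its error, which includes the difference between numbers. With the number as a block, TNFRSF10D was at an unadjusted p under 0.05 with limma and edgeR, and was not called. PERP, a tetraspan protein of cell junctions that also acts in apoptosis, was lower in number 2, at -1.37 ± 0.08 (limma adjusted p = 2.78e-06). Per kilobase of transcript, TNFRSF10B stood 17.6 times above TNFRSF10D in mimic 2 and 13.2 times in control 2, against 1.63 in mimic 1 and 1.43 in control 1. This pair was chosen after its values were seen.

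Among the loci of the apoptosis genes described with 4 values, TNFRSF10B (chr8:23020133-23069179) and TNFRSF10D (chr8:23135588-23164030) lie close together on the minus strand of chromosome 8. BBC3 lies at chr19:47220822-47232766 on the minus strand, APAF1 at chr12:98645141-98735433 and FAS at chr10:88990582-89015785, both on the plus strand. FAS shares 8.93% of its exon bases with ACTA2 on the other strand, and APAF1 shares 9.48% with ANKS1B. The kit kept the strand, but the strand setting of the counting is not given in the sources used here, so reads of such overlaps may be uncertain.

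The repair genes did not move as 1 group. GADD45A, a stress sensor that acts in repair and at the G2 checkpoint, had 9323 normalized reads in mimic 2 and 9361 in control 2, against 2766 in mimic 1 and 2548 in control 1. It was 3.52-fold higher in number 2, by 1.81 ± 0.08 on the log2 scale (limma adjusted p = 4.09e-07), and the 2 treatments nearly coincided. XPC, which finds bulky lesions for nucleotide excision repair, had 2610 in mimic 2 and 2664 in control 2, against 1454 in mimic 1 and 1382 in control 1. The numbers were 1.86-fold apart, with a log2 difference of 0.90 ± 0.08 (limma adjusted p = 2.85e-05). RRM2B, the p53-inducible subunit of ribonucleotide reductase, was higher in number 2 by 0.75 ± 0.09 (limma adjusted p = 0.000186).

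DDB2, the partner of XPC in finding damage from ultraviolet light, went the other way. It had 1038 normalized reads in mimic 2 and 1147 in control 2, against 1539 in mimic 1 and 1768 in control 1. Both number 2 libraries were below both number 1 libraries, at -0.60 ± 0.10 on the log2 scale (limma adjusted p = 0.00123), and the mimic was lower inside both, at -0.20 in number 1 and -0.14 in number 2. Its promoter is the one with the 0-mismatch p53 match shown above. POLH, the polymerase that copies past ultraviolet lesions, had 649 in mimic 2 and 614 in control 2, against 661 in mimic 1 and 765 in control 1. Control 1 was the highest library, and the difference of -0.17 ± 0.11 between numbers was not called (limma adjusted p = 0.241).

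Of the repair genes, XPC (chr3:14145147-14178783, minus strand) shares 6.63% of its exon bases with LSM3 on the other strand. LSM3, a gene of the spliceosome and RNA decay, moved against XPC, with 1057 normalized reads in mimic 2 and 1254 in control 2, against 2465 in mimic 1 and 2226 in control 1. GADD45A lies at chr1:67685061-67688338, DDB2 at chr11:47214465-47239240 and POLH at chr6:43576150-43615660, all on the plus strand.

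The genes of metabolism, redox state and mitochondria had the smallest median difference between numbers of the 5 roles. TIGAR, a phosphatase that slows glycolysis, had 1270 normalized reads in mimic 2 and 1268 in control 2, against 705 in mimic 1 and 584 in control 1. The number 2 libraries were nearly equal and well above number 1, by 0.98 ± 0.11 on the log2 scale (limma adjusted p = 0.000110). TIGAR (chr12:4307763-4354593, plus strand) shares 42.6% of its exon bases with the overlapping gene ENSG00000285901 on the same strand, so its value depends on how reads were split. That gene had 504 in mimic 2 and 582 in control 2, against 341 in mimic 1 and 280 in control 1.

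SESN1, a sestrin that restrains mTOR signalling, had 522 in mimic 2 and 554 in control 2, against 352 in mimic 1 and 385 in control 1. It was higher in number 2 by 0.54 ± 0.12 (limma adjusted p = 0.00454), a call that was lost without control 2. SPATA18, with its 4 values above, and TP53I3, a quinone oxidoreductase linked to reactive oxygen, were not called between numbers. TP53I3 had 409 in mimic 2 and 365 in control 2, against 364 in mimic 1 and 393 in control 1, with neither grouping apart. The differences between numbers were 0.09 ± 0.12 for SPATA18 and 0.03 ± 0.13 for TP53I3 (limma adjusted p = 0.576 and 0.853). FDXR, a mitochondrial reductase that passes electrons to ferredoxin, differed by 0.15 ± 0.13 between numbers (limma adjusted p = 0.375) and had opposite treatment differences, -0.28 inside number 1 and 0.17 inside number 2. SESN1 lies at chr6:108986437-109094819 and TP53I3 at chr2:24077433-24085861 on the minus strand, and SPATA18 at chr4:52051331-52097292 on the plus strand.

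In the group of growth arrest and other roles, BTG2 had the largest difference between numbers of all 30 members. BTG2, an antiproliferative protein that speeds the decay of messenger RNA, had 326 normalized reads in mimic 2 and 381 in control 2, against 56.7 in mimic 1 and 76.9 in control 1. It was 5.27-fold higher in number 2, by 2.40 ± 0.20 on the log2 scale (limma adjusted p = 1.73e-05). The mimic was below the control inside both numbers, at -0.43 in number 1 and -0.23 in number 2. The treatment difference of -0.33 ± 1.19 was within its error, which includes the difference between numbers.

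The Polo-like kinases of this group differed from each other in size. PLK3, a stress-responsive kinase, had 1045 in mimic 2 and 1122 in control 2, against 381 in mimic 1 and 514 in control 1, so both number 2 libraries were far above number 1. Its difference was 1.29 ± 0.14 (limma adjusted p = 9.27e-05). PLK2, a related kinase of the centrosome and the stress response, had 2109 in mimic 2 and 2775 in control 2, against 1970 in mimic 1 and 1815 in control 1. Only control 2 stood well above the others, and the call was close to the threshold (0.36 ± 0.13, limma adjusted p = 0.0417). Inside the mimic PLK2 differed between numbers by 0.10 and inside the control by 0.61. The call was lost without mimic 1, without control 1 and without control 2, where the difference was as low as 0.16 (without control 2). Without mimic 2 the difference was 0.55 and the call was kept.

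PHLDA3, a repressor of AKT signalling, had 5465 in mimic 2 and 5973 in control 2, against 3456 in mimic 1 and 4217 in control 1. The mimic was the lower library inside each number, and number 2 was higher by 0.58 ± 0.10 (limma adjusted p = 0.00152). ZMAT3, an RNA-binding zinc finger protein that affects splicing, had 2410 in mimic 2 and 2637 in control 2, against 2610 in mimic 1 and 2456 in control 1. It was level across the 4 libraries, with -0.01 ± 0.09 between numbers (limma adjusted p = 0.958). SUSD6, a membrane protein induced by p53, differed by 0.09 ± 0.12 between numbers and was not called. All 6 genes of this group had an average treatment difference below 0, from -0.33 to -0.02, where 53.8% of all genes did. Of the 6, 3 had the same sign inside both numbers, as did 50% of all genes, and none was called. With libraries scaled by their totals, SUSD6 stood at 0.0069 and ZMAT3 at 0.017. BTG2 lies at chr1:203305491-203309602 and PLK3 at chr1:44800225-44805990 on the plus strand, and PLK2 at chr5:58453982-58460260, PHLDA3 at chr1:201464383-201469237 and ZMAT3 at chr3:179017223-179072279 on the minus strand.

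The 5 members with a p53 match in the promoter differed in both directions. Between numbers AEN differed by 0.63, MDM2 by 0.57, FDXR by 0.15, FAS by 0.06 and DDB2 by -0.60 on the log2 scale. In the mimic the same genes differed from the control by -0.09, -0.11, -0.06, -0.11 and -0.17.

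Levels of different genes were compared per kilobase, as the sum of each transcript's value over its length. GADD45A was highest on average (4188 normalized reads per kilobase), followed by CCNG1 (2859), TNFRSF10B (2760), BAX (2653) and PHLDA3 (2565). These neighbours in the order overlapped in their libraries, since GADD45A ran from 1791 to 6506 and TNFRSF10B from 1004 to 4532. CCNG1, at 2505 to 3103, was the highest member in each number 1 library. At the low end were SUSD6 (82.9), BTG2 (77.5) and APAF1 (39.0). MDM2 stood above its partner MDM4 by 5.66 times in mimic 2 and 5.65 times in control 2, against 6.41 in mimic 1 and 7.58 in control 1.

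**Figure D4:**
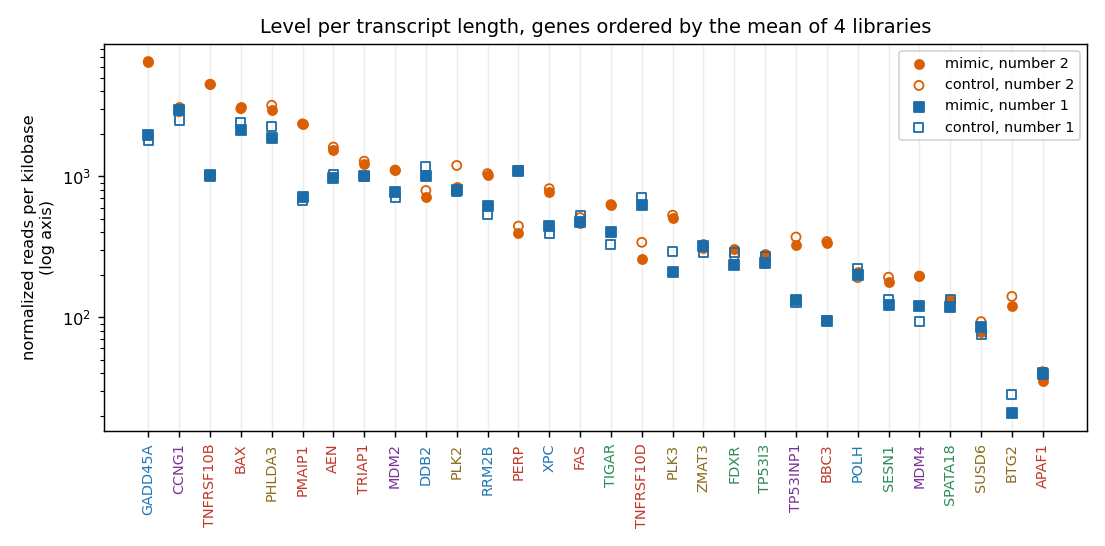
Normalized reads per kilobase of transcript (log axis) for the 30 p53 genes in each library, ordered by the mean of 4 libraries, with filled symbols for the mimic, open symbols for the control, circles for number 2 and squares for number 1. GADD45A is highest with a mean of 4188 and APAF1 lowest with 39.0, and CCNG1 shows 4 values close together from 2505 to 3103.

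Single transcripts showed which products of a gene carried its value. Of 130 member transcripts tested, 0 were called in the mimic against the control (background 0.0% of 58500 transcripts) and 17 in number 2 against number 1 (background 8.32%), 15 higher and 2 lower, in 14 members. The member transcript calls were lost when a library was left out. Such a fit keeps a single library in 1 of the numbers, so the loss cannot be weighed. The main coding transcripts of MDM4 had unlike values. MDM4-205 had 547 normalized reads in mimic 2 and 723 in control 2, against 276 in mimic 1 and 329 in control 1. MDM4-203 had 410 in mimic 2 and 381 in control 2, against 493 in mimic 1 and 350 in control 1. The first was higher in both number 2 libraries by 1.06 and just missed the threshold (limma adjusted p = 0.0588), and the second differed by -0.07 (limma adjusted p = 0.864). The difference between the transcripts was not tested.

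TP53INP1, which was added after its values were seen, had a similar imbalance between its transcripts. TP53INP1-201 had 929 in mimic 2 and 1164 in control 2, against 196 in mimic 1 and 269 in control 1, a log2 difference of 2.17 (limma adjusted p = 0.0196). TP53INP1-202 had 915 in mimic 2 and 922 in control 2, against 553 in mimic 1 and 450 in control 1, a difference of 0.88 (limma adjusted p = 0.0457). Both were called, and here too their difference from each other was not tested.

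In TIGAR the coding transcript TIGAR-201 had 738 in mimic 2 and 754 in control 2, against 324 in mimic 1 and 280 in control 1, a log2 difference of 1.30 (limma adjusted p = 0.0217). TIGAR-204 differed by 0.70 and the transcript without annotated coding sequence, TIGAR-202, by 0.40, neither called. In FAS the largest share, 38.6% of the gene, belonged to FAS-220, which has no annotated coding sequence. FAS-220 had 386 and 367 in mimic 1 and 2, against 306 and 341 in control 1 and 2. It was higher in both mimic libraries, while the coding transcripts FAS-204 and FAS-202 were lower on average, at -0.43 and -0.33, none of these called.

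Of the other genes described by transcript, POLH-202 was at -0.41 and POLH-201 at 0.05 between numbers, SPATA18-201 at 0.14 and SPATA18-202 at -0.25, and TP53I3-202 at 0.04 and TP53I3-201 at -0.05, none of them called. APAF1, outside the genes taken by that rule, had a wider split, with APAF1-202 at -1.31, APAF1-209 at 0.72 and APAF1-210 at 0.20, none of them called. Values of transcripts that share exons are estimates by the authors' software and are less certain than those of genes.

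**Figure D5:**
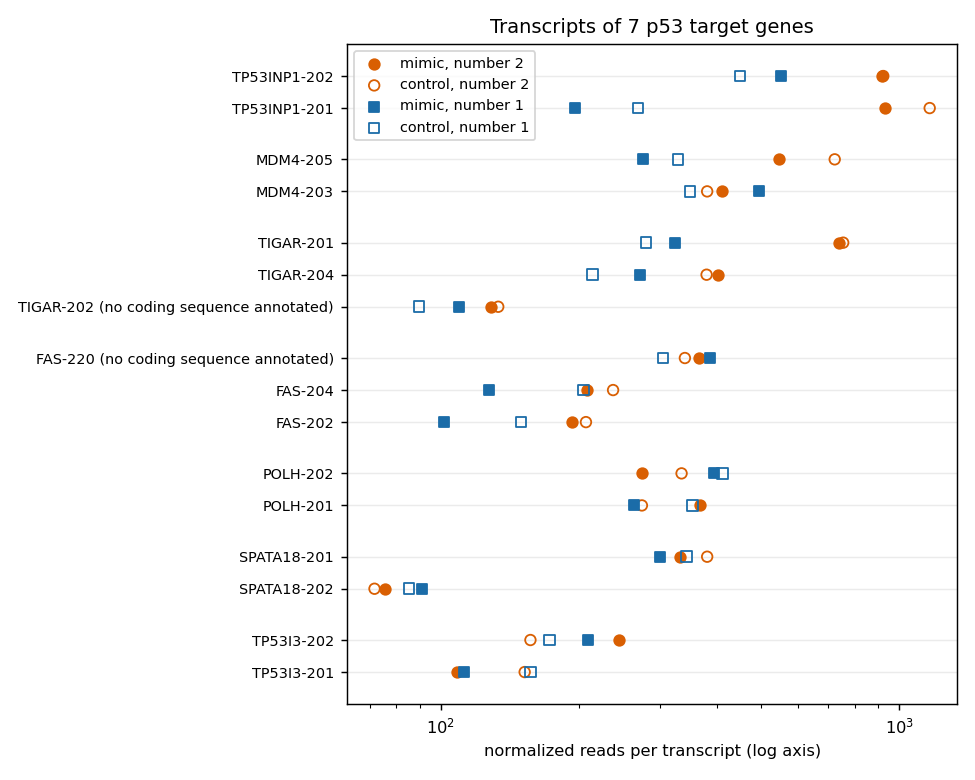
Normalized reads per transcript (log axis) for 7 p53 genes in each library, with filled symbols for the mimic, open symbols for the control, circles for number 2 and squares for number 1. MDM4-205 and TP53INP1-201 separate number 2 from number 1, while MDM4-203 does not.

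Other genes of the pathway were read from lists set by name, also with earlier results of these data known. Among 29 further p53 targets tested, 15 were called higher and 3 lower in number 2 (against 26.0% and 24.2% of all genes), with a median log2 difference of 0.33, and the largest differences were those of DDIT4 (4.70), SESN2 (3.29) and ABHD4 (1.70). Among 14 kinases, ligases and cofactors of p53, 4 were called higher and 5 lower (64.3% called, against 50.2% of all genes), with a median of -0.15. Those furthest from 0 were the checkpoint kinase genes CHEK1 (-0.97) and CHEK2 (-0.80) and the acetyltransferase gene EP300 (0.78). Among 12 cell cycle genes that p53 is known to lower through the DREAM repressor complex, 12 were called lower in number 2 (against 24.2% of all genes), with a median of -1.94, and MYBL2 (-2.55), BIRC5 (-2.27) and TOP2A (-2.22) led them. In the mimic against the control 0 genes of these 3 lists were called, with medians of -0.05, 0.02 and -0.02.

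Another stress programme moved with the same split of libraries. ATF4 and CHOP are transcription factors of the integrated stress response, and CHOP is known to act on TNFRSF10B. Of 14 genes listed for them, 14 were called higher in number 2 (against 26.0% of all genes), with a median log2 difference of 3.05, above the 2.40 of BTG2, the p53 gene that differed most. Furthest from 0 were CHAC1 (5.14), DDIT4 (4.70) and ASNS (4.32), and DDIT4 and SESN2 stand in this list and in that of the further p53 targets. Summed neuron markers were 3714 and 3679 normalized reads in mimic 2 and control 2, against 1795 and 1757 in mimic 1 and control 1, with RBFOX3 not analysed here. Its members went in both directions, since SYT1 and MAP2 were higher in number 2, while SNAP25 had 80.2 and 88.5 in mimic 2 and control 2, against 712 and 778 in mimic 1 and control 1. The astrocyte and glioma markers summed to 139599 and 148414 in mimic 2 and control 2, against 291405 and 319969 in mimic 1 and control 1. VIM held most of that sum, with 121239 and 126391 in mimic 2 and control 2, against 249907 and 276546 in mimic 1 and control 1. CD44, SLC1A3 and NES were lower in number 2 as well. GFAP and SOX2, both at low values, were lower in number 2 inside the mimic and higher inside the control. The part of these movements in the differences of the p53 genes was not tested. Apart from TNFRSF10B, the p53 genes were not sorted by whether ATF4 or CHOP also acts on them. In the mimic against the control the ATF4 and CHOP list had a median of -0.06, with 0 genes called.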

How the data were processed

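For 4 libraries the deposited values are a signal for each Ensembl transcript, made by the authors as read estimates divided by a size factor per library, as far as the values show. Per the submitters' processing notes kallisto, DESeq2 and hg38 were used, with versions and annotation release not given in the sources used here. Per the labels' protocols, RNA was poly(A)-selected, made into directional libraries and sequenced as pairs. Of 100809 transcripts 90643 (89.9%) matched GENCODE v29 by identifier without version, which gave sums for 22031 genes. The unmatched rest held 3.25% to 3.56% of each library.

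Genes with a mean of at least 10 were tested two-sided with limma with a trend on log2(value + 1), with Benjamini-Hochberg adjustment at 0.05 over 16535 genes. A fold change on this scale understates the change of low genes. In the low values 95.6% to 99.7% were whole multiples of 1 step (tolerance 0.1), and dividing by it gave approximate reads for edgeR and DESeq2, which called 0 genes each in the mimic against the control. The step is approximate, and no transcript in the values used here had under 10 such reads over the 4 libraries. Counting error aside, the 4 libraries limit precision.

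The members and lists were chosen with earlier results of these data known. Values in every library were given for MDM2, MDM4 and, per role, the 2 members with the smallest p for treatment, the 2 with the largest and the 1 with the smallest difference between numbers. From each other list the 3 genes furthest from 0 between numbers were named. Transcripts were described for at most 6 members with 2 or more main transcripts of differing type or sign. The fits were tested on simulated data. Alternatives were other pseudocounts (0.5 and 5), filters, scalings, tools, coding transcripts alone, a replicate block or treatment term and each library left out. R 4.3.3, limma 3.58.1, edgeR 4.0.16, DESeq2 1.42.0, Python 3.11.15, numpy 2.4.6, pandas 2.3.3 and matplotlib 3.10.9 were used.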

Additional observations from a re-analysis of the deposited data

How the results depend on the processing

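No member was called in the mimic against the control under any alternative run, the blocks and each library left out included. Deviations from the group means were correlated across genes between libraries of a number (r = 0.745), but 2 pairs without a labelled link establish no pairing. With a replicate block limma called 117 of all genes (55 higher, 62 lower, 0.708%) and edgeR, added after seeing the data as was its treatment term, 91 (0.55%). The blocked limma fit pooled its variance over all genes. In number 2 against number 1 the count over all genes was 5163 without mimic 2, 5430 without control 2 and up to 7942 with another library left out, and 18 to 21 members were then called. PLK2 was not called without the filter or with scaling by library totals. Member transcripts called went to 11 with a treatment term and 0 with a library left out. With scaling by library totals, the treatment difference was 0.0019 for BAX, 0.0069 for SUSD6, 0.030 for APAF1, 0.019 for TRIAP1 and 0.017 for ZMAT3, and the number difference was -0.012 for TP53I3. With coding transcripts alone XPC was at -0.041 in the mimic, and FAS at -0.41 in the mimic and 0.36 between numbers, not called in either. Leaving out 1 library gives mimic and control an unequal share of each number, which brings the number difference into the treatment, and it changed sign in 27 members. The ranges were -0.41 to 0.22 for AEN, -0.074 to 0.058 for APAF1, -0.31 to 0.24 for BAX, -0.97 to 0.88 for BBC3, -1.58 to 0.92 for BTG2, -0.48 to 0.14 for DDB2, -0.25 to 0.13 for FDXR, -0.88 to 0.99 for GADD45A, -0.45 to 0.23 for MDM2, -0.32 to 0.37 for MDM4, -0.81 to 0.64 for PERP, -0.54 to 0.12 for PHLDA3, -0.45 to 0.17 for PLK2, -0.99 to 0.46 for PLK3, -0.86 to 0.96 for PMAIP1, -0.23 to 0.092 for POLH, -0.37 to 0.53 for RRM2B, -0.39 to 0.17 for SESN1, -0.14 to 0.074 for SUSD6, -0.42 to 0.70 for TIGAR, -1.11 to 1.13 for TNFRSF10B, -0.92 to 0.35 for TNFRSF10D, -0.060 to 0.11 for TP53I3, -0.83 to 0.71 for TP53INP1, -0.20 to 0.17 for TRIAP1, -0.45 to 0.50 for XPC, -0.078 to 0.037 for ZMAT3. Between numbers APAF1 ran from -0.092 to 0.0026, TP53I3 ran from -0.049 to 0.11, ZMAT3 ran from -0.071 to 0.059. The cause of these changes was not tested beyond that construction.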

Other observations

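APAF1, level as a gene, was divided unevenly among its transcripts. APAF1-201 was listed at 0 in both mimic libraries, against 33.2 and 72.8 normalized reads in control 1 and 2. APAF1-202 had 125 and 122 in mimic 1 and 2, against 119 and 19.1 in control 1 and 2. Neither was called with limma (adjusted p = 1.00 for treatment), and these coding transcripts share most of their exons. In SESN1 both main transcripts were higher in number 2, and the difference between them was not tested. SESN1-204 differed by 0.88 and SESN1-202 by 0.26 on the log2 scale, number 2 minus number 1 (limma adjusted p = 0.0649 and 0.382). GTPBP2, which shares 4 exon bases with POLH on the other strand, had 13492 normalized reads in mimic 2 and 12041 in control 2, against 2551 in mimic 1 and 2810 in control 1. FAM228B, which shares 3.46% of the exon bases of TP53I3 on the other strand, had 463 and 341 in mimic 2 and control 2, against 175 and 206 in mimic 1 and control 1. These transcripts and neighbours were chosen after their values were seen.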
